A study of Mus musculus with 128 samples.

Results

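Collagen chain genes are the mouse genes whose symbols read Col, a type number, the letter a and a chain number. All 55285 gene symbols shared by 8 tissue tables were searched, 44 matched, and 43 of them had a mean normalised read count of 10 or more in at least 1 tissue. These 43 are the members described here. Col10a1, a network collagen of growth cartilage, was the match left out, with a highest mean of 5.53. Of the members, Col9a1 had the lowest such mean, 35.0 in muscle. The members fall into 11 fibrillar chains, 8 basement membrane chains, 9 FACIT chains (fibril-associated collagens with interrupted triple helices), 6 beaded filament chains of type VI, 4 transmembrane chains, 2 short-chain network collagens, the anchoring fibril chain Col7a1 and 2 others (Col26a1 and Col28a1).

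Bulk RNA sequencing was done on skin, gastrocnemius muscle, lung, liver, kidney, heart, brain and aorta of untreated wild-type mice at 6, 15, 24 and 30 months of age. Each tissue and age had 4 libraries, in 32 groups. The labels name male C57BL/6J animals for all tissues but aorta, whose records name no sex or strain and give the age in the title alone. They do not say whether the libraries of an age came from separate animals or whether tissues shared animals, so the p-values measure the spread between these libraries. Every change below is set against the 6-month libraries unless another age is named.

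Collagens are the main structural proteins of the extracellular matrix, and each molecule is built of chains wound into a helix. Types I, III and V assemble into the banded fibrils that carry load in skin, tendon, vessel walls and the sheaths of muscle. Type IV forms the meshwork of basement membranes under epithelia and endothelia and around muscle fibres, and type VI forms fine beaded filaments between that meshwork and the fibrils. In most organs fibroblasts and related mesenchymal cells make the fibrillar chains, while endothelial and epithelial cells also make type IV.

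Library depth ran from 7.65 to 82.8 M reads (M, 1e6), with a median of 15.6 M. The tissue labels were checked against defining markers. At 6 months the summed values of 6 neuronal markers were 92251 to 98413 in brain, those of 6 smooth muscle markers 46737 to 85779 in aorta and those of 6 keratinocyte markers 94094 to 233230 in skin. Other tissues were present too: 6 adipocyte markers summed to 168950 to 183150 in the 6-month aorta libraries, and 6 skeletal muscle fibre markers to 40183 to 130040 in the 6-month skin libraries. Each library's whole profile was summarised as its median rank correlation with the rest of its tissue. By Dixon's rule 30-month replicate 3 of aorta (0.975) and 24-month replicate 4 of heart (0.929) stood apart from their own age group. That aorta library was not the lowest of its tissue, since 6-month replicate 3 stood at 0.963. Replicates 3 and 4 of 30-month kidney, the lowest kidney libraries (0.978 each), did not meet the rule and were set apart by hand. Liver 30-month replicate 3, the lowest in liver (0.952), was not set apart. For summed collagen reads, 15-month replicate 1 of kidney and 15-month replicate 3 of liver stood apart. Counts against 6 months that rest on the libraries set apart by whole profile are given with and without them. The steps from 15 to 24 months were not refitted without the 15-month kidney and liver libraries.

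The bases before the start are shown for 4 genes that the results turn on: Col1a2 and Col3a1 of the main fibrils, and Col6a1 and Col6a2, which passed the test in the most tissues. RefSeq (assembly GRCm38.p6) held promoter entries for 34 of the 43 members, and each sequence is the 250 bases before the annotated start, 5′ to 3′ on the gene's own strand. Capitals mark matches, on either strand, to TATAAA (the TATA box core), CCAAT (the CCAAT box) and GGGCGG (the GC box). Col1a2 lies at chr6:4505368-4505617 (+) and Col3a1 at chr1:45311288-45311537 (+). Col6a1 lies at chr10:76726045-76726294 (−) and Col6a2, of which the first of 2 entries is shown, at chr10:76623405-76623654 (−).
Col1a2: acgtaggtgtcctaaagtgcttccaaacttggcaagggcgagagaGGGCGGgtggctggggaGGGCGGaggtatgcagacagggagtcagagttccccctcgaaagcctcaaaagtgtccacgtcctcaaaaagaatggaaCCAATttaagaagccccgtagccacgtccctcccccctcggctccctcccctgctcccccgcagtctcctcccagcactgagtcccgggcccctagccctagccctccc
Col3a1: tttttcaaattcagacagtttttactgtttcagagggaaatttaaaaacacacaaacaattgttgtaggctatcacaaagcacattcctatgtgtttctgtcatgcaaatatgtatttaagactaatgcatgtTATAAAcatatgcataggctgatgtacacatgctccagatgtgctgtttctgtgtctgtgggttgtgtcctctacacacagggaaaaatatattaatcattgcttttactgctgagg
Col6a1: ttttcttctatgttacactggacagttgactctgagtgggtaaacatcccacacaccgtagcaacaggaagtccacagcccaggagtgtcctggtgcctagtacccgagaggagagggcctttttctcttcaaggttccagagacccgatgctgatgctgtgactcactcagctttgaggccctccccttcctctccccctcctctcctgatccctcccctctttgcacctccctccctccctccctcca
Col6a2: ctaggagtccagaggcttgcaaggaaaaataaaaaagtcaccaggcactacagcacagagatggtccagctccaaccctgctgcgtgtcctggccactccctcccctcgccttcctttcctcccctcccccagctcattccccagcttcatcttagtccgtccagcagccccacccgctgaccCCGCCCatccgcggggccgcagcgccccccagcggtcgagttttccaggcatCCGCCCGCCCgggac
Col1a2 held CCAAT 109 bases before the start and GGGCGG 205 and 188 bases before it. Col3a1 held TATAAA 117 bases before its start and Col6a2 held GGGCGG on the other strand 67, 15 and 11 bases before its own, the last 2 overlapping, while the Col6a1 window held none of these motifs. Over all 32851 promoter entries, 12.4% held TATAAA, 33.9% CCAAT and 32.7% GGGCGG. Among the 34 members the numbers were 4, 13 and 21. A member was counted if any of its entries held the motif, so these numbers are not like for like with the shares over single entries.

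Col4a1 and Col4a2, the 2 chains of the common type IV molecule, run in opposite directions from overlapping starts. Their annotated starts share 22 bases at chr8:11312805-11312826, shown on the strand of Col4a2 in lower case.
Col4a1 and Col4a2 shared start: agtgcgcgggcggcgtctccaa
The library kit keeps strand, but no source used here states whether the counting used it, so reads from those shared bases cannot be assigned.

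**Figure D1:**
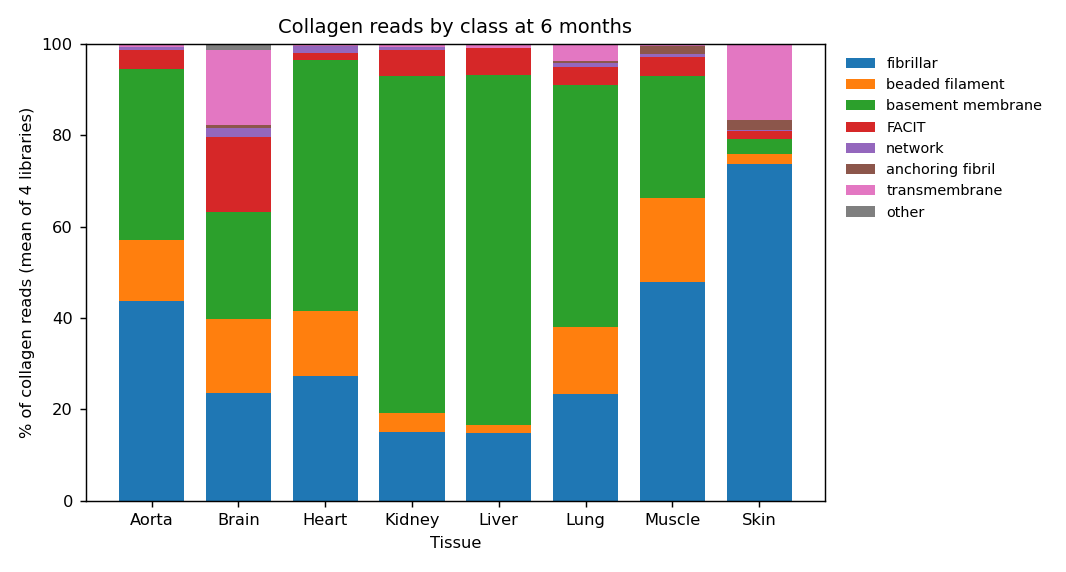
Share of all collagen reads taken by each class in each tissue at 6 months (stacked bars, percent of collagen reads, mean of 4 libraries). Basement membrane chains took 76.7% in liver and 73.9% in kidney, and fibrillar chains took 73.7% in skin.

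The tissues differed widely in which collagens they transcribed, as the bars of class make-up at 6 months show. Levels were compared per length, as CPM (reads scaled to a common library total) per kilobase of the longest annotated transcript, and as a description only because the tables were normalised separately. Col18a1, the chain of type XVIII that carries the endostatin fragment, led in liver with 106 ± 5.0 CPM per kb (SD, n = 4) against 29.3 ± 9.7 in aorta, its next highest tissue. Col4a1 led in lung with 127 ± 8.7 against 52.5 ± 5.1 in aorta and 41.4 ± 3.9 in heart, whose ranges of 49.0 to 60.0 and 37.3 to 44.9 did not meet. The 3 main interstitial chains were highest in skin, with Col1a2 at 665 ± 403, Col1a1 at 499 ± 245 and Col3a1 at 477 ± 314 CPM per kb. Those skin levels were uneven, since single libraries ran from 160 to 1025 for Col1a2.

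Several members were far higher in 1 tissue than in the rest at 6 months. Col25a1, a transmembrane collagen of neurons, stood at 10.9 ± 0.29 CPM per kb in brain and at 0.236 ± 0.10 in liver, its next tissue. Col17a1, the hemidesmosome collagen of basal keratinocytes, stood at 254 ± 156 in skin and 1.39 ± 0.26 in lung. Col22a1, found where muscle fibres join tendon, stood at 2.22 ± 0.25 in muscle and 0.241 ± 0.061 in brain. Col4a3 and Col4a4, partners in the type IV molecule of glomerular and alveolar basement membranes, were high in lung (35.9 ± 2.2 and 20.1 ± 1.3) and kidney (28.9 ± 1.4 and 25.7 ± 0.90), while no other tissue passed 0.872 for either. By tissue of highest level, 11 members peaked in skin, 10 in lung, 9 in brain, 4 in muscle, 3 in aorta and 2 each in heart, kidney and liver.

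Within tissues, the leading chain of each class was the one with the most reads over all ages, not scaled to transcript length. Per length the order can differ, as for Col4a3 and Col4a4 in kidney above. Among fibrillar chains that was Col1a2 in muscle and skin, Col3a1 in aorta, heart and lung, Col5a3 in liver, Col27a1 in kidney and Col11a2 in brain. For basement membrane chains it was Col4a1 in aorta, heart, lung, muscle and skin, Col4a2 in brain, Col4a4 in kidney and Col18a1 in liver. Col6a1 led type VI in brain, liver, lung, muscle and skin, Col6a2 in aorta and heart and Col6a3 in kidney. The FACIT leaders were Col14a1 in aorta, heart, kidney and liver, Col12a1 in lung and muscle and Col16a1 in brain and skin. Col7a1 of anchoring fibrils ran from 0.290 ± 0.088 CPM in liver to 179 ± 114 in skin. Of the 2 network chains, Col8a1 led in all tissues but lung and skin, where Col8a2 led with means of 23.1 and 23.9 CPM. The leading transmembrane chain was Col23a1 in aorta, heart, kidney, lung and muscle, Col13a1 in liver, Col25a1 in brain and Col17a1 in skin. Col28a1 led the remaining pair except in brain and kidney, where Col26a1 did.

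**Figure D2:**
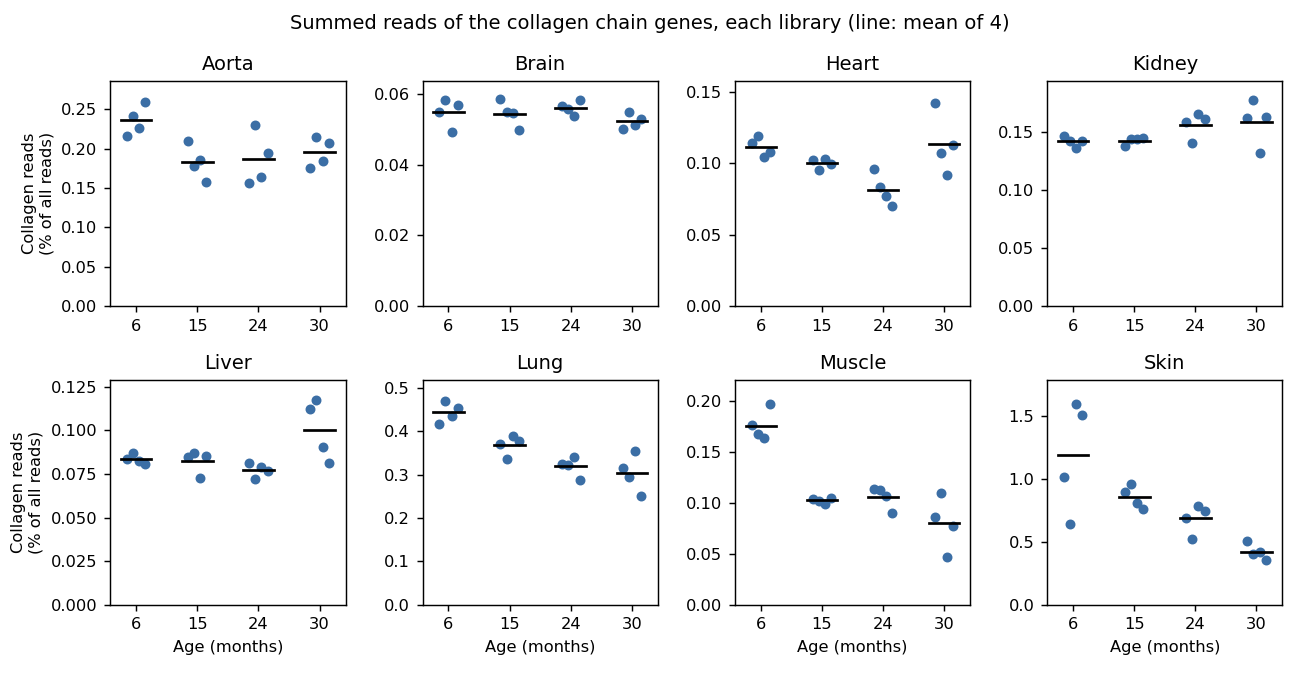
Reads of all 43 collagen genes as a percent of all reads in each library (points) by age in months, with the mean of each age, 1 panel per tissue. In lung the 6-month libraries lie between 0.417 and 0.470% and the 30-month libraries between 0.252 and 0.355%.

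Summed over the 43 members, collagen took a smaller share of the transcriptome in old muscle, lung and skin, and these sums carry no test. In muscle the 4 libraries stood at 0.176, 0.167, 0.163 and 0.197% of all reads at 6 months, at 0.0993 to 0.105% at 15 months, 0.0897 to 0.114% at 24 months and 0.0864, 0.109, 0.0470 and 0.0770% at 30 months. All the older muscle libraries lay under all the 6-month ones. In lung the mean share went from 0.444 ± 0.023% at 6 months through 0.369 ± 0.023% and 0.319 ± 0.022% to 0.304 ± 0.043% at 30 months, again without overlap between 6 and 30 months. Skin went from 1.19 ± 0.45% to 0.421 ± 0.065%, and its 6-month libraries ran from 0.644 to 1.60%. The other tissues had overlapping or near ranges: at 30 months against 6 the mean was 0.195 against 0.236% in aorta, 0.0523 against 0.0548% in brain, 0.114 against 0.111% in heart, 0.159 against 0.142% in kidney and, in liver, 0.0815 to 0.117% against 0.0804 to 0.0870%.

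**Figure D3:**
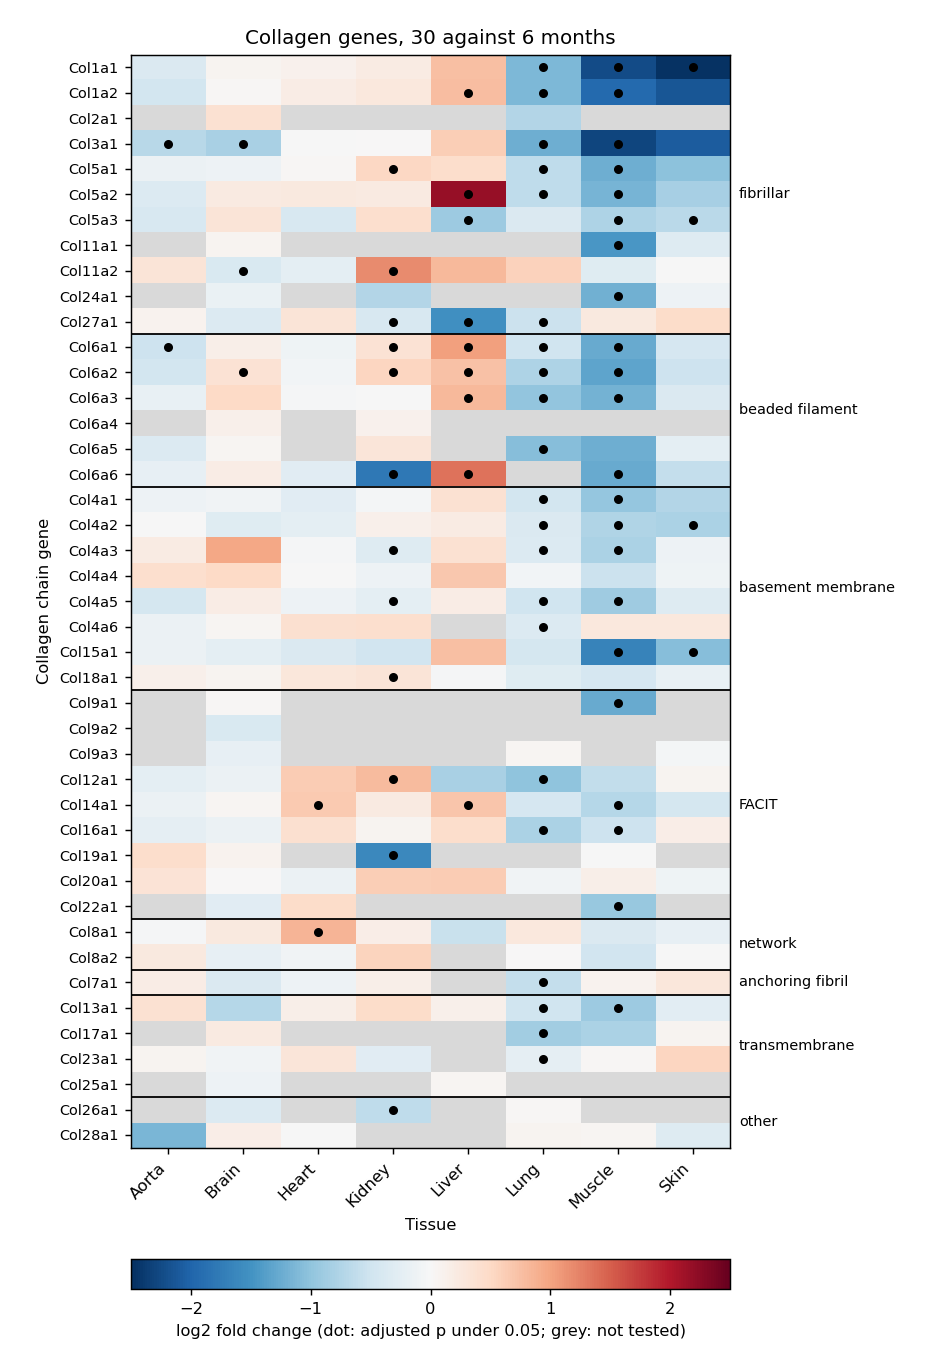
Log2 fold change at 30 against 6 months for each of the 43 collagen genes (rows, grouped by class) in each tissue (columns), with dots where the limma adjusted p was under 0.05 and grey where a gene was not tested. Dots in blue (lower) cells mark 22 members in muscle and 21 in lung, and dots in red (higher) cells mark 7 of 26 in liver.

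Each gene's change was tested with limma on log2 of the normalised count plus 1, over all genes of a tissue and with Benjamini-Hochberg adjustment, at a threshold of 0.05. In muscle, 22 of 37 tested members fell by 30 months and none rose, where 6.92% of all tested genes fell and 13.1% changed either way. In lung, 21 of 34 fell and none rose, against 8.64% of all genes falling and 19.4% changing. Skin had 4 of 35 members lower and none higher, where 0.553% of its genes fell and 0.72% changed at all; 0 of its members passed with the 2 ages fitted alone, 1 with a replicate block and 9 with DESeq2. Liver went mostly the other way, with 7 of 26 higher and 2 lower, against 24.9% of all genes changed (13.8% higher and 11% lower). Kidney had 6 higher and 6 lower of 34 against 28.3% (14.1% higher and 14.2% lower). Heart had 2 higher and none lower of 31 (5.15% of all genes changed, 4.11% higher), and aorta none higher and 2 lower of 32 (5.67% changed, 2.59% lower). Brain had 1 higher and 2 lower of 43 (7.5% changed, 3.32% higher and 4.18% lower). For change in either direction the shares in aorta, brain, heart and kidney were near those backgrounds, and that of liver was not far above its own. Without the libraries that stood apart, 0 members passed in aorta, 5 in heart and 10 in kidney, where Col11a2, Col19a1, Col26a1, Col27a1, Col4a3 and Col4a5 were not among the 10. With the 2 ages fitted alone kidney had 7, and DESeq2 called 5 in aorta.

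The median log2 change over the tested members was −0.79 in muscle, −0.47 in lung, −0.27 in skin and 0.52 in liver. It lay between −0.15 and 0.16 in the other 4 tissues, and the median over all genes lay between −0.02 and 0.01. By sign alone, 31 of 37 members were lower in muscle, 28 of 34 in lung, 28 of 35 in skin and 5 of 26 in liver. The 30-month and 6-month values did not overlap for 21 members in muscle and 18 in lung, all lower at 30 months, and for 9 in liver, 7 of them higher. The share of all genes without overlap was not counted, so these numbers have no background and only describe the members.

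Col1a1 and Col1a2, which make type I collagen, and Col3a1, which makes the type III that co-assembles with it, had the 3 largest falls among the members tested in muscle. Col3a1 stood at 5132, 4876, 4580 and 4450 normalised counts in the 6-month muscle libraries and at 1295, 2082, 323.1 and 990.5 at 30 months. That is 4.93-fold lower (log2 change −2.30 ± 0.37 SE, adjusted p = 0.0012). Every 30-month muscle library lay under every 6-month one. Col1a1 was 4.70-fold lower (−2.23 ± 0.32, adjusted p = 0.00053) and Col1a2 3.82-fold lower (−1.93 ± 0.35, adjusted p = 0.0025), also without overlap. Replicate 3 was the lowest 30-month library for all 3 genes, and without it the Col3a1 change was −1.78 (adjusted p = 5.6e-05), with 19 members called in place of 22.

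**Figure D4:**
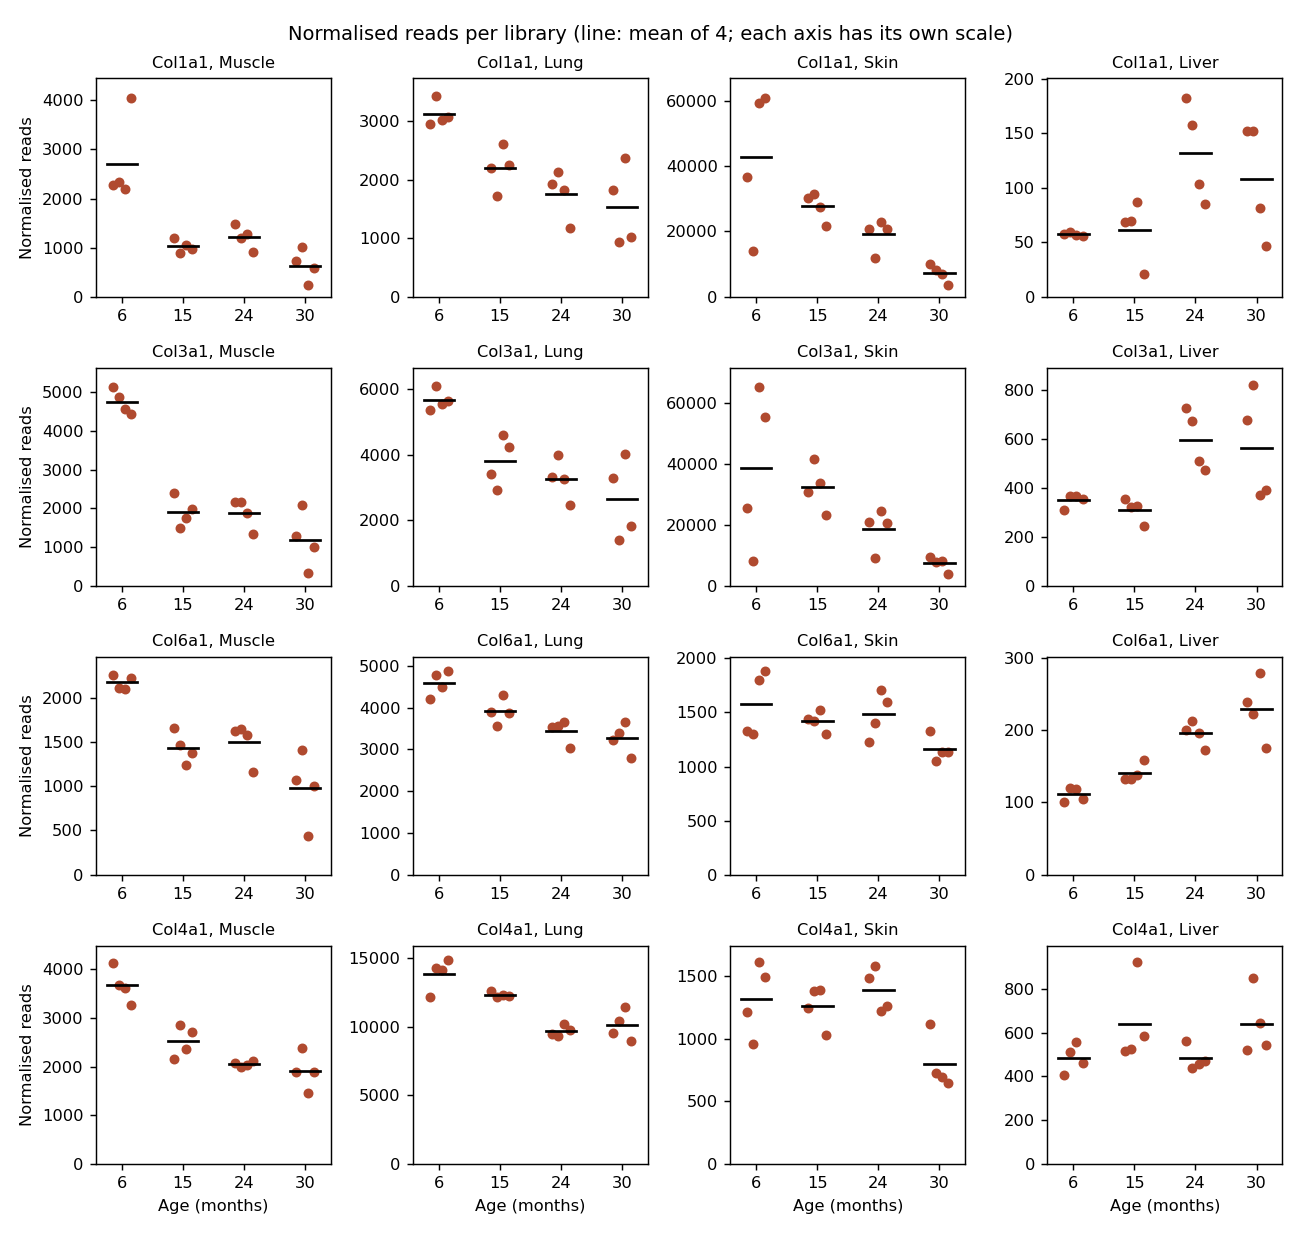
Normalised counts of Col1a1, Col3a1, Col6a1 and Col4a1 (rows) by age in months in muscle, lung, skin and liver (columns), with 1 point per library, the mean of each age as a line and a scale of its own in each panel. In muscle the 15-month values of all 4 genes lie under the 6-month ones, though of these only Col4a1 passed the test at that age, and in liver Col6a1 lies higher at 24 and 30 months than at 6.

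The same 3 chains fell in lung by less. Col1a2 stood at 4647, 5397, 5089 and 5230 at 6 months and at 3015, 1424, 3654 and 1882 at 30 months, 2.18-fold lower (−1.12 ± 0.22, adjusted p = 0.0024). Col1a1 was likewise 2.18-fold lower (−1.12 ± 0.25, adjusted p = 0.0054) and Col3a1 2.34-fold lower (−1.22 ± 0.26, adjusted p = 0.0040). The old lung libraries split, with replicates 2 and 4 well under replicates 1 and 3 for all 3 genes, yet all stayed under the 6-month range.

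In skin the falls of these chains were large and uncertain. Col1a1 stood at 36825, 14027, 59315 and 60880 at 6 months and at 10004, 8190, 6838 and 3472 at 30 months, 5.56-fold lower (−2.48 ± 0.40, adjusted p = 0.016). The groups did not overlap, but the 6-month libraries were widely spread. Col1a2 (−2.15 ± 0.48, adjusted p = 0.051) and Col3a1 (−2.08 ± 0.51, adjusted p = 0.074) missed the threshold. Replicate 2 was the low 6-month library: without it Col1a2 passed at −2.75 (adjusted p = 0.0011), Col3a1 at −2.69 (adjusted p = 0.0025), and 11 members were called in place of 4. Leaving out 6-month replicate 1, replicate 3 of 30 months or 4 of 30 months instead left 0 members called, with Col1a1 at an adjusted p of 0.052 at most.

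The skin libraries also differed in what else they held. Col17a1 and Col7a1, which anchor the epidermis, ran opposite to Col1a1 among the 6-month skin libraries: replicate 2 had the highest Col17a1 (36013 against 11172 to 20288) and the highest Col7a1 (4233 against 1199 to 3286). Neither passed at 30 months, with adjusted p of 0.95 and 0.82. The sum of 6 hair follicle markers ran from 882.3 to 18341 at 6 months and from 588.8 to 9380 at 30, and none of the 6 passed the test. None of 8 fibroblast markers passed in skin, with sums of 13696 to 29814 and 18035 to 21682. Their part in the skin values was not tested.

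In liver, aorta and brain 1 chain each of type I or III passed by 30 months, upward in liver and downward in the others. In liver Col1a2 rose from 127.6, 131.7, 149.2 and 143.0 to 269.8, 314.1, 212.1 and 172.9, 1.71-fold (0.77 ± 0.18, adjusted p = 0.0057), with no overlap. Col3a1 (0.61 ± 0.22, adjusted p = 0.056) and Col1a1 (0.75 ± 0.42, adjusted p = 0.22) did not pass there. Col3a1 fell in aorta from 6466, 7009, 7050 and 6559 to 3908, 5348, 3780 and 3777 (−0.70 ± 0.17, adjusted p = 0.029) and in brain from 51.59, 46.69, 53.57 and 52.25 to 21.23, 35.27, 27.02 and 33.51 (−0.81 ± 0.22, adjusted p = 0.032). Both of those calls were fragile. The aortic call was lost on dropping replicate 2 or 3 of 6 months or 1, 3 or 4 of 30 months (highest adjusted p 0.093). The brain call was lost on dropping any 6-month replicate or 30-month replicate 1 or 3 (highest adjusted p 0.090).

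Type I and III chains did not pass in heart, where Col1a1, Col1a2 and Col3a1 changed by 0.11, 0.18 and −0.00 on the log2 scale with adjusted p of 0.88, 0.40 and 1.0. In aorta Col1a1 (−0.36, adjusted p = 0.18) and Col1a2 (−0.45, adjusted p = 0.095) did not pass, nor in brain (0.07 and 0.03, adjusted p of 0.90 and 0.95). Kidney rested on 1 library. Col1a1 stood at 334.8, 313.6, 302.1 and 327.0 at 6 months and at 457.8, 517.1, 120.7 and 657.1 at 30 months (0.21 ± 0.34, adjusted p = 0.68). All but replicate 3 lay above the 6-month range, and replicate 3 lay far under it. Col1a2 (0.27 ± 0.19, adjusted p = 0.30) and Col3a1 (0.01 ± 0.34, adjusted p = 0.99) did not pass either. Without replicate 3, Col1a1 rose by 0.75 (adjusted p = 0.00056), Col1a2 by 0.54 (adjusted p = 0.0022) and Col3a1 by 0.55 (adjusted p = 0.0042).

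The type V and XI chains regulate fibril width, and Col5a2 moved in opposite directions in different tissues. In liver it stood at 44.9, 45.6, 43.3 and 39.7 at 6 months and at 391.2, 202.7, 168.3 and 120.7 at 30 months, 4.54-fold higher (2.18 ± 0.26, adjusted p = 0.00021), the largest rise of any member in liver. The 24-month values of 83.77, 88.55, 111.7 and 79.98 lay between. In muscle Col5a2 fell from 844.8, 814.2, 778.2 and 855.9 to 356.3, 504.5, 265.9 and 376.6 (−1.17 ± 0.14, adjusted p = 0.00012) and in lung from 1269 to 1331 down to 683.6 to 1046 (−0.63 ± 0.10, adjusted p = 0.00084). Its partner Col5a1 fell in muscle (−1.22 ± 0.20, adjusted p = 0.0014) and lung (−0.64 ± 0.14, adjusted p = 0.0051) and rose in kidney (0.52 ± 0.13, adjusted p = 0.0081).

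Col5a3, a rarer chain of type V, was lower in liver, muscle and skin. In liver it stood at 1089, 1192, 972.4 and 1142 at 6 months and at 612.8, 738.1, 355.2 and 716.2 at 30 months, 1.88-fold lower (−0.91 ± 0.19, adjusted p = 0.0036), while Col5a2 rose in the same libraries. The falls were −0.77 ± 0.14 in muscle (adjusted p = 0.0025) and −0.68 ± 0.14 in skin (adjusted p = 0.036). The skin call was lost on dropping any 1 of 6 libraries, namely 6-month replicates 1, 3 and 4 and 30-month replicates 1, 3 and 4 (highest adjusted p 0.12).

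Col27a1, a long fibrillar chain best known from cartilage, fell in liver by −1.54 ± 0.37 on the log2 scale (adjusted p = 0.0073), from 734.6 to 1011 down to 100.7 to 471.6. It also fell in lung (−0.53 ± 0.11, adjusted p = 0.0048) and kidney (−0.39 ± 0.14, adjusted p = 0.039). The kidney call was lost on dropping replicate 1, 2 or 4 of 6 months or 1 or 3 of 30 months (highest adjusted p 0.12). Col11a2 rose in kidney at a very low level, from 6.715, 6.272, 6.346 and 2.025 to 11.2, 10.3, 18.3 and 11.6 normalised counts (1.19 ± 0.37, adjusted p = 0.025), and was lost on dropping replicate 4 of 6 months or 3 of 30 months (highest adjusted p 0.084). In brain, where Col11a2 is the leading fibrillar chain, it fell from 501.9 to 560.8 down to 325.6 to 468.4 (−0.38 ± 0.10, adjusted p = 0.021). That call was lost on dropping replicate 2 or 4 of 6 months or 3 of 30 months (highest adjusted p 0.065). In muscle the minor fibrillar chains Col11a1 (−1.46 ± 0.30, adjusted p = 0.0059) and Col24a1 (−1.21 ± 0.24, adjusted p = 0.0041) fell as well, so that 8 of 10 tested fibrillar members were lower there, against 6 of 9 in lung.

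Type VI, the beaded filament collagen that muscle needs for fibre integrity, held the 2 members that passed in the most tissues. Col6a1 and Col6a2 each passed in 5 of 8, and Col3a1 came next with 4. Col6a1 fell in muscle from 2256, 2107, 2098 and 2227 to 1075, 1414, 436.7 and 1004, 2.40-fold (−1.26 ± 0.24, adjusted p = 0.0035). It fell in lung from 4211, 4786, 4497 and 4867 to 3214, 3397, 3650 and 2791, 1.41-fold (−0.50 ± 0.08, adjusted p = 0.0012). In liver it rose from 100.7, 119.9, 118.8 and 105.3 to 239.4, 222.8, 278.3 and 174.8, 2.03-fold (1.02 ± 0.14, adjusted p = 0.00032). None of these 3 pairs of groups overlapped.

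Col6a1 also fell in aorta (−0.51 ± 0.13, adjusted p = 0.035) and rose in kidney (0.36 ± 0.11, adjusted p = 0.023). The aortic call was lost on dropping replicate 2 or 4 of 6 months or 1, 2 or 3 of 30 months (highest adjusted p 0.11), and the kidney one without replicate 2 of 6 months or 2 or 4 of 30 months (highest adjusted p 0.079). Col6a2 fell in muscle (−1.32 ± 0.28, adjusted p = 0.0065) and lung (−0.77 ± 0.12, adjusted p = 0.00087). It rose in liver (0.74 ± 0.20, adjusted p = 0.012), kidney (0.53 ± 0.13, adjusted p = 0.0081) and brain (0.35 ± 0.08, adjusted p = 0.013). In brain the values went from 267.8, 268.1, 259.7 and 282.1 to 324.5, 364.0, 363.2 and 327.3, with no overlap, and that call held without any 1 library.

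All 4 tested type VI chains fell in lung and all 4 tested ones rose in liver. Col6a3, the longest chain of the classic type VI molecule, changed by −1.18 ± 0.26 in muscle (adjusted p = 0.0086), −0.99 ± 0.16 in lung (adjusted p = 0.00086) and 0.82 ± 0.21 in liver (adjusted p = 0.011). Col6a6, an alternative to Col6a3, fell in muscle (−1.25 ± 0.32, adjusted p = 0.016) and kidney (−1.79 ± 0.49, adjusted p = 0.012) and rose in liver (1.36 ± 0.39, adjusted p = 0.017). Its liver values were small, 5.07 to 13.9 at 6 months and 17.9 to 39.6 at 30, and the call was lost on dropping 6-month replicate 2 (adjusted p = 0.058). Col6a5 in lung (−1.07 ± 0.35, adjusted p = 0.044) rested on 13.0 to 20.9 against 4.84 to 12.5 and was lost on leaving out any of 7 of the 8 libraries, all but 30-month replicate 3 (highest adjusted p 0.13).

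The basement membrane chains Col4a1 and Col4a2 fell together in muscle and lung. In muscle Col4a1 stood at 4143, 3675, 3628 and 3278 at 6 months and at 1891, 2381, 1462 and 1889 at 30 months, 1.95-fold lower (−0.97 ± 0.12, adjusted p = 0.00013). Col4a2 was 1.69-fold lower (−0.76 ± 0.09, adjusted p = 7.6e-05). In lung Col4a1 went from 12191, 14255, 14099 and 14856 to 9537, 10436, 11435 and 8963, 1.37-fold lower (−0.46 ± 0.08, adjusted p = 0.00096), and Col4a2 was 1.28-fold lower (−0.35 ± 0.09, adjusted p = 0.0093). All these groups were apart, though the lung drop was small beside that of the type I chains.

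Skin Col4a2 fell from 981.3, 827.5, 1195 and 1155 to 851.7, 545.2, 543.9 and 495.0 (−0.79 ± 0.17, adjusted p = 0.038) and overlapped through 1 old library. It was lost on dropping replicate 1, 3 or 4 of 6 months or 2, 3 or 4 of 30 months (highest adjusted p 0.13), and Col4a1 there missed the threshold (−0.73 ± 0.18, adjusted p = 0.076). At 30 months neither chain passed in the other tissues: Col4a1 changed by −0.12 in aorta, −0.09 in brain, −0.28 in heart, −0.04 in kidney and 0.38 in liver (adjusted p of 0.49, 0.56, 0.11, 0.82 and 0.15). Col4a2 changed by −0.02, −0.31, −0.25, 0.12 and 0.20 in the same order (adjusted p of 0.95, 0.071, 0.33, 0.32 and 0.26). In heart, without 24-month replicate 4, which shares the estimate of spread, both passed at 30 months with the same changes (adjusted p of 0.031 and 0.037).

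Col4a3 and Col4a5, chains of the glomerular and alveolar type IV molecule, passed as lower in kidney, lung and muscle. In kidney Col4a3 stood at 4394, 4320, 4241 and 3891 at 6 months and at 3775, 3923, 3040 and 2857 at 30 months (−0.32 ± 0.09, adjusted p = 0.016), and Col4a5 changed by −0.24 ± 0.07 (adjusted p = 0.017). Their partner Col4a4 did not pass (−0.13 ± 0.09, adjusted p = 0.30). Without 30-month replicates 3 and 4 together Col4a3 did not pass (adjusted p = 0.28), and without replicate 4 alone its adjusted p was 0.057. Col4a5 was lost on dropping replicate 3 (adjusted p = 0.054). The sum of 6 podocyte markers was 5731 to 6894 at 6 months and 6928 to 8484 at 30, with 4 of the 6 higher, where 14.1% of all genes were higher. In lung Col4a3 (−0.35 ± 0.09, adjusted p = 0.016), Col4a5 (−0.49 ± 0.12, adjusted p = 0.0097) and Col4a6 (−0.35 ± 0.08, adjusted p = 0.0089) fell, and Col4a3 there was lost on dropping 30-month replicate 4 (adjusted p = 0.055). Col4a6 is not a chain of the glomerular and alveolar molecule, and Col4a4, which is, did not pass in lung.

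Types XV and XVIII sit at the outer face of basement membranes. Col15a1 fell in muscle from 1201, 1150, 1076 and 984.9 to 527.5, 640.2, 102.1 and 411.1, 3.18-fold (−1.67 ± 0.37, adjusted p = 0.0083), the largest fall in muscle after those of Col1a1, Col1a2 and Col3a1. In skin it changed by −1.06 ± 0.23 (adjusted p = 0.041), with overlap, and was lost on dropping replicate 1, 3 or 4 of 6 months or 2, 3 or 4 of 30 months (highest adjusted p 0.13). Col18a1 rose in kidney (0.33 ± 0.09, adjusted p = 0.011). In liver, where it is the leading collagen, it changed by −0.02 (adjusted p = 0.92).

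The FACIT chains coat fibrils. Col14a1 rose in liver from 859.3, 930.5, 954.8 and 917.8 to 1386, 1889, 1345 and 1399, 1.63-fold (0.70 ± 0.11, adjusted p = 0.00059), with no overlap. It rose in heart from 116.9, 175.5, 137.6 and 156.3 to 271.7, 198.8, 235.1 and 210.7 (0.65 ± 0.16, adjusted p = 0.023), a call lost on dropping replicate 1 or 3 of 6 months or 1 or 3 of 30 months (highest adjusted p 0.096). Col12a1 rose in kidney from 185.1, 199.4, 206.9 and 182.2 to 276.3, 339.4, 302.2 and 452.8, 1.74-fold (0.80 ± 0.12, adjusted p = 0.00030). In lung the same gene fell 2.02-fold, from 1123 to 1524 down to 479.5 to 1082 (−1.01 ± 0.20, adjusted p = 0.0030). Col19a1, a rare FACIT chain, fell in kidney from 35.1 to 46.0 down to 3.86 to 24.3 (−1.61 ± 0.46, adjusted p = 0.016). Col19a1 did not pass without the 2 old kidney libraries that stood apart (adjusted p = 0.12).

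Among the remaining classes, Col8a1, a short-chain network collagen of vessel and heart matrix, rose in heart from 275.1, 284.9, 267.2 and 253.2 to 663.0, 414.8, 484.5 and 420.5, 1.80-fold (0.85 ± 0.16, adjusted p = 0.0059). The heart groups did not overlap and the call held without any 1 library. Col26a1, of uncertain class, fell in kidney from 43.5 to 47.0 down to 17.9 to 36.5 (−0.64 ± 0.20, adjusted p = 0.026), lost on dropping replicate 2 or 3 of 6 months or 4 of 30 months (highest adjusted p 0.078). In lung all 3 tested transmembrane chains and Col7a1 fell: Col17a1 by −0.86 ± 0.14 (adjusted p = 0.00096), Col13a1 by −0.50 ± 0.12 (adjusted p = 0.0093), Col23a1 by −0.22 ± 0.07 (adjusted p = 0.039) and Col7a1 by −0.60 ± 0.17 (adjusted p = 0.019). Of these, Col23a1 was lost on dropping replicate 2, 3 or 4 of 6 months or 1, 3 or 4 of 30 months (highest adjusted p 0.13) and Col7a1 without 30-month replicate 1 or 4 (highest adjusted p 0.065).

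In muscle the last 3 calls to depend on 1 library were Col13a1 (−0.90, adjusted p = 0.025), Col14a1 (−0.71, adjusted p = 0.047) and Col16a1 (−0.53, adjusted p = 0.037). Each was lost on dropping replicate 1 or 4 of 6 months or 3 or 4 of 30 months, and Col14a1 and Col16a1 also without 6-month replicate 2 or 3 (highest adjusted p 0.080, 0.11 and 0.11). The other 19 muscle calls held when any 1 of the 8 libraries was left out, as did 17 of the 21 in lung, 8 of the 9 in liver and 6 of the 12 in kidney. Fewer passed in every leave-one-out fit and under every other setting as well: 15 of 22 in muscle, 15 of 21 in lung, 7 of 9 in liver and 5 of 12 in kidney. With the 2 ages fitted alone, Col6a2 (adjusted p = 0.055), Col6a3 (0.066), Col6a6 (0.068) and Col15a1 (0.067) did not pass in muscle, nor did Col4a2 (0.053) and Col4a6 (0.051) in lung or Col6a2 (0.055) in liver.

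Fibroblast markers were also lower in muscle and lung. In muscle 6 of 8 fell and none rose, with the sum at 32159 to 33488 at 6 months and 18158 to 26505 at 30. In lung 6 of 8 also fell, from 59701 to 64654 down to 38773 to 48635, along with 5 of 6 endothelial markers (53795 to 56471 down to 39593 to 46725), 5 of 6 smooth muscle markers and 5 of 5 alveolar type 1 markers. Endothelial markers in muscle fell for 3 of 6 (6350 to 7870 down to 5537 to 6344). In liver 3 of 6 stellate cell markers rose (4536 to 5286 up to 5454 to 6029), as did 3 of 5 tested pericyte and 6 of 6 macrophage markers. In kidney 3 of 8 fibroblast and 4 of 6 pericyte markers rose. Beside these counts, 6.92% of all genes were lower in muscle and 8.64% in lung, and 13.8% were higher in liver and 14.1% in kidney. In aorta 6 adipocyte markers summed to 194310 to 207950 at 30 months, with none past the threshold. The part of these cell types in the collagen values was not tested, and in bulk tissue fewer cells of a type and less RNA per cell cannot be told apart.

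**Figure D5:**
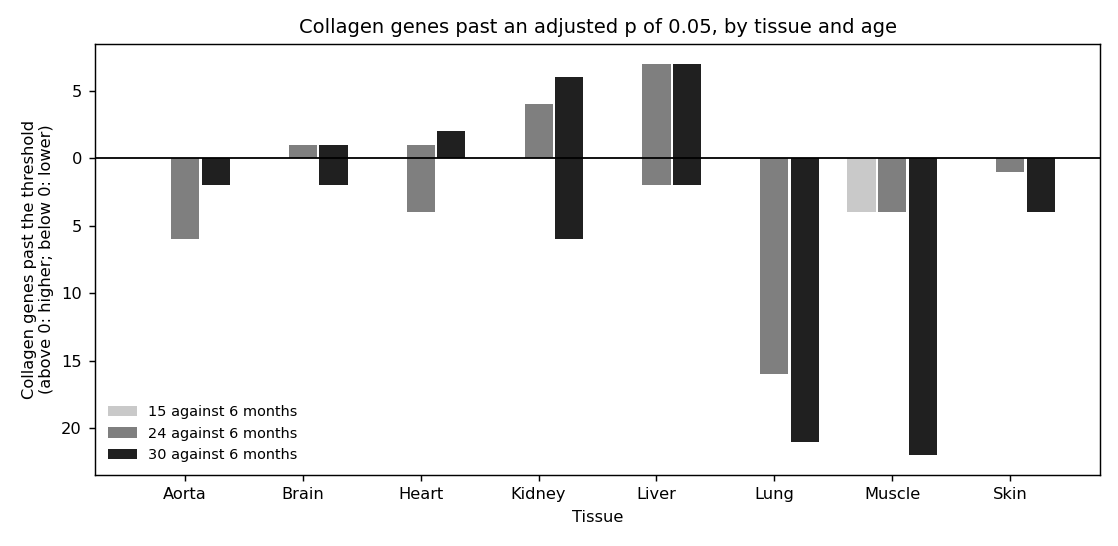
Number of collagen genes higher or lower than at 6 months (adjusted p under 0.05) at 15, 24 and 30 months, by tissue. Muscle goes from 4 lower at 15 and 24 months to 22 at 30, and lung from 0 to 16 and 21.

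The age at which members passed differed. At 15 months only muscle had calls, with 4 of 37 members lower where 0.604% of all genes changed and 0.199% fell. They were Col4a1 (−0.55 ± 0.12, adjusted p = 0.043), Col4a2 (−0.55 ± 0.09, adjusted p = 0.0079), Col5a3 (−0.69 ± 0.14, adjusted p = 0.032) and Col9a1 (−1.34 ± 0.25, adjusted p = 0.025). Col9a1, a FACIT chain of cartilage, rested on 49.1 to 70.0 normalised counts against 12.4 to 32.8. The Col4a2 call alone of these held without any 1 library. Col4a1 was lost on dropping any of the 8, Col5a3 without replicate 1, 2 or 3 of 6 months or 2, 3 or 4 of 15 months, and Col9a1 without any 6-month replicate or 15-month replicate 4 (highest adjusted p 0.17, 0.13 and 0.093). The values of Col3a1 in muscle had already gone to 2389, 1489, 1738 and 1974 at that age, under all 6-month values, with DESeq2 on the recovered reads calling 11 members and the 2 ages fitted alone calling 15.

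In the other tissues 0 members passed at 15 months by limma, where 1.63% of all genes had changed in lung, 1.23% in liver, 0.587% in heart, 0.48% in kidney, 0.173% in skin, 0.0868% in aorta and 0.0247% in brain. At an unadjusted p under 0.05 there were 13 in lung, 12 in aorta, 8 in heart, 7 each in kidney and skin, 6 in liver and 3 in brain. The share of all genes at that unadjusted limit was not counted, and the percentages above, at the adjusted threshold, are no background for these numbers. DESeq2 called 5 in aorta and 1 in kidney.

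At 24 months lung had 16 of 34 members lower and none higher, against 15.1% of all genes changed and 6.23% lower. They included Col4a1 (−0.51 ± 0.08, adjusted p = 0.00068), Col5a1 (−0.75 ± 0.14, adjusted p = 0.0029), Col13a1 (−0.73 ± 0.12, adjusted p = 0.0014) and Col1a1 (−0.86 ± 0.25, adjusted p = 0.029). The Col1a1 call was lost on dropping replicate 2, 3 or 4 of 6 months or 4 of 24 months (highest adjusted p 0.094), and 10 of the 16 held without any 1 library. Muscle had 4 of 37 lower against 1.77% of all genes changed and 0.611% lower: Col4a1 (−0.83), Col4a2 (−0.70), Col5a2 (−0.71) and Col5a3 (−0.75), with adjusted p of 0.0022, 0.00095, 0.016 and 0.012. Col5a2 there was lost on dropping replicate 1 or 3 of 6 months or 4 of 24 months (highest adjusted p 0.065). The muscle count of 4 was 9 with DESeq2 and 15 with the 2 ages fitted alone. No muscle member differed between 24 and 30 months by limma, with 18 at an unadjusted p under 0.05, a limit at which all genes were not counted.

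Liver already had 7 of 26 higher and 2 lower at 24 months, against 11.6% of all genes (7.6% higher and 3.99% lower). The type VI chains Col6a1 (0.81 ± 0.14, adjusted p = 0.0030), Col6a2 (0.72 ± 0.20, adjusted p = 0.027) and Col6a3 (0.90 ± 0.21, adjusted p = 0.013) had risen, with Col1a2 (0.89 ± 0.18, adjusted p = 0.0067) and Col5a2 (1.04 ± 0.26, adjusted p = 0.019). Col6a2 there was lost on dropping replicate 1 or 3 of 6 months or 1 or 2 of 24 months (highest adjusted p 0.089). Col3a1 was higher (0.75, adjusted p = 0.041) and Col13a1 lower (−0.76, adjusted p = 0.033), and both were lost on leaving out any 6-month library, and some 24-month ones (highest adjusted p 0.12 and 0.088). Between 15 and 24 months liver gained Col1a2 (0.95), Col3a1 (0.92) and Col14a1 (0.49) and lost Col13a1 (−1.04), against 4.49% of all genes changed (1.95% higher and 2.53% lower).

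In heart at 24 months, against 4.92% of all genes (1.17% lower and 3.75% higher), 4 of 31 members were lower and 1 higher. Col4a1 stood at 5195, 5002, 4365 and 4403 at 6 months, 3104, 2723, 2758 and 2619 at 24 months and 4309, 4200, 3161 and 4034 at 30 months. The 24-month change was −0.76 ± 0.10 (adjusted p = 0.00030), with Col4a2 at −0.82 ± 0.12 (adjusted p = 0.0019), Col15a1 at −0.59 ± 0.10 (adjusted p = 0.0051) and Col5a3 at −1.07 ± 0.21 (adjusted p = 0.0096). Col14a1 was higher (0.75 ± 0.16, adjusted p = 0.012). All 5 calls held without any 1 library, the 24-month replicate that stood apart included, but with the 2 ages fitted alone Col14a1 and Col5a3 did not pass (adjusted p of 0.12 and 0.070), and DESeq2 called 8. From 24 to 30 months no member passed, with 11 at an unadjusted p under 0.05, a limit at which all genes were not counted.

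Aorta had 6 of 32 members lower at 24 months against 5.81% of all genes changed and 3.01% lower: Col1a1 (−0.63), Col1a2 (−0.57), Col4a5 (−0.79), Col5a3 (−0.79), Col6a1 (−0.59) and Col6a2 (−0.56), with adjusted p from 0.019 to 0.044. Each of the 6 was lost on leaving out 3 to 7 of the 8 libraries in turn, Col6a1 the least often (6-month replicate 2 and 24-month replicates 1 and 3, highest adjusted p 0.057). With the 2 ages fitted alone 0 members passed there, without the filter on low values 2, and without the library that stood apart 3. Kidney had 4 of 34 higher against 10.6% changed and 6.72% higher, namely Col6a1 (0.51), Col6a2 (0.64), Col12a1 (0.56) and Col11a2 (1.52), with adjusted p of 0.0084, 0.0064, 0.0087 and 0.016. Col11a2 was lost on dropping 24-month replicate 4 (adjusted p = 0.054). The kidney count of 4 was 10 without the libraries that stood apart and 8 with the 2 ages fitted alone. Brain had 1 of 43, Col6a2 (0.42 ± 0.08, adjusted p = 0.016), against 0.667% changed and 0.581% higher, lost on dropping replicate 2 or 3 of 6 months or 1, 2 or 4 of 24 months (highest adjusted p 0.067). Skin had 1 of 35, Col5a3 (−0.59 ± 0.14, adjusted p = 0.045), against 1.84% changed and 0.958% lower, lost on dropping any of the 8 libraries (highest adjusted p 0.15).

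Between 15 and 24 months, 3 members fell in lung, Col4a1 (−0.35), Col5a1 (−0.49) and Col20a1 (−0.51), where 5.72% of all genes changed and 2.57% fell. In aorta Col5a3 (−0.79) and Col27a1 (−0.85) fell against 11.6% changed and 5.81% lower, and in kidney Col14a1 rose (0.57) against 4.99% changed and 2.85% higher. In brain, heart, muscle and skin no member passed, where 0.673, 0.217, 2.4 and 0.202% of all genes changed. No member passed from 24 to 30 months in any tissue by limma, where 3.18% of all genes changed in aorta, 1.83% in lung, 0.346% in brain, 0.149% in liver, 0.0064% in kidney and 0% in heart, muscle and skin. At an unadjusted p under 0.05 there were 20 members in skin, 6 in liver, 4 each in brain and lung and 3 each in aorta and kidney. The share of all genes at that unadjusted limit was not counted, so these numbers have no background.

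Whether the change from 6 to 30 months differed between the 8 tissues was tested with a limma F test over the libraries of all tissues. It did for 21 of 43 members, where 32.2% of 21469 genes passed. Restricted to genes tested in all 8 tissues, 21 of 24 members passed, against 43.6% of 11444 genes. Col5a2 (adjusted p = 5.1e-16), Col6a1 (3.8e-15), Col6a2 (2.4e-11), Col1a2 (1.3e-10) and Col1a1 (1.6e-09) had the smallest adjusted p. For these 5 the signs differed between tissues, with liver higher and muscle and lung lower, though Col1a1 in liver did not pass by itself.

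Chains of 1 molecule were also compared within each library as ratios of normalised counts. Col1a1 over Col1a2 was 0.613 ± 0.025 at 6 and 0.614 ± 0.052 at 30 months in lung, while in muscle it went from 0.580 ± 0.016 to 0.475 ± 0.070 without overlap. In kidney Col4a3 over Col4a4 went from 0.951 ± 0.030 (0.906 to 0.974) to 0.831 ± 0.023 (0.800 to 0.856). In liver Col5a2 over Col5a1 went from 0.340 ± 0.061 to 1.23 ± 0.56, and Col5a2 over Col1a2 from 0.317 ± 0.038 to 0.897 ± 0.37. No test was run on these ratios.

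The other genes of collagen biology were counted by list at 30 months, with no test of any list. Beside those counts, the share of all genes that changed in either direction was 28.3% in kidney, 24.9% in liver, 19.4% in lung, 13.1% in muscle and 7.5% or less in brain, aorta, heart and skin. Of 19 tested enzymes that fold and hydroxylate new collagen chains, 9 fell in lung and none rose, led by Serpinh1, the collagen chaperone HSP47, from 4226, 5460, 6822 and 5898 to 3103, 2005, 3630 and 2556 (adjusted p = 0.00070). Those groups did not overlap. In muscle 5 of 18 fell and 1 rose, and the one that rose was the leading gene, P4hb (0.47 ± 0.07, adjusted p = 0.00081), the shared subunit of prolyl 4-hydroxylase and a general disulfide isomerase. Kidney had 5 lower and 2 higher of 18 (P4hb −0.26 ± 0.05, adjusted p = 0.0021) and liver 4 higher and 1 lower of 18 (Colgalt1, a collagen galactosyltransferase, 0.36 ± 0.10, adjusted p = 0.014), and the liver share lay near that of all its genes. Serpinh1 also fell in brain (−0.57 ± 0.13, adjusted p = 0.0088), where 2 of 19 passed, and in aorta (−0.44 ± 0.11, adjusted p = 0.030), where 1 of 18 did. No gene of this list passed in heart or skin.

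Genes for propeptide removal and crosslinking fell in muscle and lung and rose in liver, kidney and heart. In muscle 7 of 12 fell, led by Adamts2, which trims procollagen (−0.95 ± 0.14, adjusted p = 0.00063), and in lung 4 of 12 fell, led by Pcolce2 (−0.60 ± 0.11, adjusted p = 0.0017). In liver 5 of 9 rose, led by Pcolce, an enhancer of procollagen cleavage (0.89 ± 0.20, adjusted p = 0.0044). In kidney 4 of 11 rose, led by Bmp1, the C-proteinase (0.69 ± 0.09, adjusted p = 5.7e-05), and in heart 3 of 12 rose, led by Adamts2 (0.56 ± 0.10, adjusted p = 0.0035). Brain had 1 of 12 (Pcolce2, 0.46 ± 0.13, adjusted p = 0.035), and aorta and skin none.

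Small proteoglycans bind fibrils and limit their growth. In liver 6 of 7 rose, led by Bgn, which went from 1373, 1358, 1362 and 1452 to 2244, 2586, 2737 and 2272 (0.82 ± 0.08, adjusted p = 0.00011). In kidney 4 of 8 rose, led by Dcn (0.94 ± 0.11, adjusted p = 3.3e-05), and in heart only Bgn of 8 (0.80 ± 0.08, adjusted p = 1.6e-05). Muscle and lung had 1 lower each, Kera (−1.65 ± 0.44, adjusted p = 0.021) and Prelp (−0.67 ± 0.11, adjusted p = 0.0012). None of the list passed in aorta, brain or skin.

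Partners of type IV in the basement membrane were lower in both tissues where Col4a1 and Col4a2 fell. In muscle 8 of 11 fell, led by Sparc, which binds collagen, from 6094, 5992, 5718 and 8121 to 3013, 3452, 2142 and 3088 (−1.16 ± 0.13, adjusted p = 7.1e-05). In lung 9 of 12 fell, led by the laminin chain Lama4 (−0.59 ± 0.10, adjusted p = 0.0014). Kidney had 3 higher and 2 lower of 12 (Lamb2 0.32 ± 0.07, adjusted p = 0.0034), liver 3 higher (Nid1 0.57 ± 0.13, adjusted p = 0.0060), aorta 2 lower of 11 (Lamc1 −0.35 ± 0.07, adjusted p = 0.013) and brain 1 higher (Lama5 0.34 ± 0.09, adjusted p = 0.031).

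Collagen receptors and collagen-degrading proteases passed in both directions. Lair1, an inhibitory collagen receptor of leukocytes, led the receptor list with rises in liver (2.01 ± 0.31, adjusted p = 0.00062), kidney (1.86 ± 0.26, adjusted p = 0.00014), heart (1.74 ± 0.33, adjusted p = 0.0055) and brain (0.63 ± 0.11, adjusted p = 0.0013). In all, 5 of 7 receptors rose in liver and 4 of 9 in kidney, where 13.8% and 14.1% of all genes were higher. In lung 4 of 10 rose and 2 fell, led by the platelet receptor Gp6 (3.72-fold higher, adjusted p = 0.00020), and in muscle 1 rose and 2 fell, led by Itga2 (−1.44 ± 0.30, adjusted p = 0.0055). Of the collagen-degrading proteases Mmp3 rose in heart (1.69 ± 0.15, adjusted p = 9.5e-06) and muscle (1.91 ± 0.36, adjusted p = 0.0032), Mmp14 in kidney (1.25 ± 0.14, adjusted p = 1.3e-05) and liver (1.15 ± 0.11, adjusted p = 9.5e-05) and Mmp13 in lung (1.66 ± 0.47, adjusted p = 0.021). By count, 3 of 7 proteases rose in kidney, 2 of 5 in liver and 2 of 8 in heart. In lung 1 of 9 rose and 2 fell, in muscle 1 of 7 rose and 2 fell, and none passed in aorta, brain or skin. Macrophage markers rose beside them, 6 of 6 in liver and heart and 5 of 6 in kidney, and their part was not tested. In heart 4.11% of all genes were higher.

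The TGF-beta pathway is a main inducer of fibrillar collagen, and some of its genes passed, in either direction. In liver 5 of 12 rose, led by Ltbp1, which stores latent TGF-beta (1.57 ± 0.25, adjusted p = 0.00076), and in kidney 5 of 13, led by Ccn2 (0.67 ± 0.18, adjusted p = 0.012), against 13.8% and 14.1% of all genes higher. In muscle 1 of 13 fell, Smad3 (−0.71 ± 0.20, adjusted p = 0.028), a share near the 6.92% of all genes lower there. In lung 2 rose and 1 fell, led by Ltbp3 (−0.68 ± 0.10, adjusted p = 0.00049), where 19.4% of all genes changed. Tgfbr2 rose in heart (0.40 ± 0.09, adjusted p = 0.011), while Tgfbr1 rose in brain (0.31 ± 0.08, adjusted p = 0.017) and fell in skin (−0.48 ± 0.10, adjusted p = 0.044). Of all genes, 4.11% were higher in heart, 3.32% higher in brain and 0.553% lower in skin.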

How the data were processed

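The authors deposited 1 table of gene-level signal per tissue, in which reads had been divided by a size factor per library. The submitters' processing notes name FastQC, STAR, RSEM, DESeq2 and GRCm39, without versions, and the labels' protocols name frozen pulverised tissue and a stranded mRNA kit; no source used here names the gene annotation. Whole reads were recovered from the steps in each column (100% of values within 0.01 of a whole read). Values were tested as log2(value + 1) with limma-trend (limma 3.58.1, R 4.3.3), 1 mean per age over the 16 libraries of a tissue, after edgeR's filterByExpr with a minimum count of 10, so log2 changes of low genes are understated. Tests are two-sided. The alternatives were edgeR 4.0.16 and DESeq2 1.42.0 on the recovered reads, TMM scaling, no filter, pseudocounts of 0.1 and 5, the 2 ages alone, a replicate block and leaving out libraries; restricting the comparison of tissues to shared genes and leaving out libraries by their summed collagen reads were chosen after seeing the data. Scripts were tested on simulated data. Transcript lengths are from GENCODE M21.

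Members and gene lists were chosen with earlier results of these data known. Named are the 3 lowest and 3 highest called members per tissue at 30 months, Col1a1, Col1a2, Col3a1, Col4a1 and Col4a2 throughout, the member of each class with most reads per tissue, the 3 members past the threshold in the most tissues, the leading gene of each pathway list, and all members past the threshold at 15 or 24 months where at most 5 passed; any other member was named after its values were seen. Depth sets the precision of low members such as Col11a2 in kidney.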

Additional observations from a re-analysis of the deposited data

Results flagged for a closer look

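Single libraries far from the other 3 of their tissue and age were looked for in the summed collagen reads and in 7 genes, and the distance was judged against Dixon's 95% critical value. Of 32 groups of summed reads 2 held such a library, and of 224 groups for the 7 genes 11 did; chance gives about 1 in 20. The summed share of reads was 0.1383% in 15-month kidney replicate 1 and 0.07247% in 15-month liver replicate 3. Col1a1 stood apart at 1872 normalised counts in 6-month aorta replicate 1, at 61.8 in 24-month brain replicate 1 and at 4046 in 6-month muscle replicate 4, the library in which Col1a2 also stood apart at 7014. Col3a1 stood apart at 5348 in 30-month aorta replicate 2 and at 521.6 in 15-month kidney replicate 3. Col1a2 did so at 993 in 6-month heart replicate 1. Col6a1 stood apart at 1013 in 24-month heart replicate 1 and at 1164 in 24-month muscle replicate 4. Col4a2 stood apart at 3275 in 6-month muscle replicate 1 and at 851.7 in 30-month skin replicate 1.

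Tissues differed in the 30-month change of 21 members by the limma F test with Benjamini-Hochberg adjustment, against 32.2% of all genes. The adjusted p was 5.115e-16 for Col5a2, 3.756e-15 for Col6a1, 2.408e-11 for Col6a2, 1.332e-10 for Col1a2, 1.642e-09 for Col1a1, 3.766e-09 for Col6a3 and 8.152e-09 for Col5a1. For the type IV chains it was 5.024e-08 for Col4a1, 2.280e-07 for Col4a2 and 0.005175 for Col4a4. It was 3.480e-07 for Col3a1, 4.494e-06 for Col12a1, 1.098e-05 for Col16a1, 1.214e-05 for Col27a1, 3.177e-05 for Col6a6, 6.762e-05 for Col5a3 and 0.0004828 for Col14a1. The remaining values were 0.002158 for Col8a1, 0.009862 for Col15a1, 0.01347 for Col11a2 and 0.02974 for Col7a1. With edgeR in place of limma Col7a1 did not pass (adjusted p = 0.24).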

How the results depend on the processing

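Among counts of members recomputed under settings other than leaving out 1 library, 183 stayed within 1.5 times the reported count and 31 did not, and the count of members that differ between tissues did so in each (21 to 28). DESeq2 called 5 in aorta at 15 and at 30 months, 8 in heart at 24, 1 in kidney at 15, 11 and 9 in muscle at 15 and 24, and 5 and 9 in skin at 24 and 30. Without the filter on low values aorta had 2 at 24 and 1 at 30 months and skin 0 at 24, and with TMM scaling skin had 0 at 24. With the 2 ages compared alone the counts were 0 in aorta at 24 months, 4 and 3 in heart at 15 and 24, 1, 8 and 7 in kidney at 15, 24 and 30, 5 in lung at 15, 15 in muscle at 15 and at 24, and 0 in skin at 24 and 30. Without the libraries that stand apart they were 3 and 0 in aorta at 24 and 30 months, 3 and 5 in heart at 15 and 30, and 3 and 10 in kidney at 15 and 24. The cause was not tested.

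Samples with the same replicate number did not deviate together: their correlations ran from −0.531 to 0.467, and in no tissue and age were all above 0.1. A replicate block gave 0 in place of 1 in skin at 24 months and 1 in place of 4 at 30.

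Leaving out each library in turn, the muscle count at 30 months ran from 19 to 24, that of lung from 17 to 22, of skin from 0 to 11, of kidney from 9 to 14, of liver from 8 to 13, of brain from 1 to 3, of heart from 1 to 2 and of aorta from 0 to 2. At 24 months they ran from 0 to 5 in aorta, 0 to 1 in brain and skin, 5 to 8 in heart, 3 to 5 in kidney and muscle, 6 to 9 in liver and 10 to 15 in lung, and at 15 months from 1 to 5 in muscle and at 0 elsewhere.

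The values that reversed at 30 months were all small and uncalled. Col4a2 in aorta ran from −0.147 to 0.0912 on the log2 scale with each library left out, and was 0.00674 without the library that stands apart. In brain Col1a1 ran from −0.114 to 0.183 and Col1a2 from −0.130 to 0.144. In heart Col3a1 ran from −0.159 to 0.136, and was 0.0363 with edgeR, 0.0311 with DESeq2 and 0.00537 with TMM scaling. In kidney Col1a1 ran from −0.0605 to 0.751, Col3a1 from −0.251 to 0.555 and Col4a1 from −0.100 to 0.0770, the last at 0.0455 without the libraries that stand apart.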
